A study of Mus musculus with 6 samples.

Results

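Annexins are proteins that attach to negatively charged phospholipids of membranes when calcium rises. Each has a conserved core of repeats, which holds the calcium sites, and an N-terminal part of its own, which binds partners such as S100 proteins. In the heart, members of the family are known from cardiomyocytes, fibroblasts, vessels and leukocytes, and have been studied for membrane repair, the control of inflammation, plasmin formation at the cell surface and the recognition of dying cells.

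The transcripts of 10 annexin genes, *Anxa1*, *Anxa2*, *Anxa3*, *Anxa4*, *Anxa5*, *Anxa6*, *Anxa7*, *Anxa8*, *Anxa9* and *Anxa11*, were followed in mouse hearts. The genes were taken by their symbols in the array annotation, with every probe that carried one of these symbols. This gave 10 of the 27307 genes with a symbol and 28 of the 56605 non-control probes. The family was selected on the low *Anxa8* signal of the NEXN-S437E hearts, which was already known from these same arrays. The values of *Anxa8* are therefore a description, and the p-values printed with them are no independent evidence. *Anxa10* and *Anxa13*, the other 2 annexin genes on the array, were not among the members and are given apart.

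The hearts came from male C57BL/6J *Clk4*-cKO mice, in which tamoxifen had induced the deletion of the floxed kinase gene *Clk4* (Clk4 fl/fl) through MerCreMer, a Cre recombinase driven by the α-MHC promoter of cardiomyocytes. One group had received AAV NEXN-WT (3 mice), an AAV9 vector with nexilin, a Z-disk protein, behind the broadly active CMV promoter and followed by GFP. The other had received AAV NEXN-S437E (3 mice), the same vector with the phosphorylation-mimic form of nexilin, so by their labels both groups carried the deletion and a virus, and the comparison was designed to set one form of nexilin against the other. The labels give no age, and RNA of the myocardium of each mouse was hybridised to 1 Agilent single-colour array.

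A signal is given here as log2 of the processed intensity minus the 75th percentile of the same array, called the relative log2 signal, so 0 is the 75th percentile and a difference of 1 is 2-fold. The percentile itself was an intensity of 110 to 273, and 41.9% to 47.8% of the spots of an array were well above background in the scanner software. NEXN-WT replicate 1 stood apart, with a mean absolute difference of 0.412 from the other arrays of its group, against 0.236 to 0.344 for the other 5 arrays. The *Clk4* probe A_52_P445387 had a log2 fold change (log2FC, NEXN-S437E over NEXN-WT) of 0.13 ± 0.18 (SE), and the *Nexn* probes A_52_P367520 and A_55_P2745249 had 0.02 and 0.14, each with overlap between the groups. The other *Clk4* probes, A_52_P128262 (0.45, without overlap) and A_52_P368396 (0.60, with overlap), were too dim to test. The probes were not placed within these genes, so they do not check the deletion or the vector. MerCreMer carries the ligand-binding part of the estrogen receptor, the product of *Esr1*. The *Esr1* probe A_55_P2030883, whose place in that gene was not assigned, had relative log2 signals of 3.13, 5.82 and 5.21 in the NEXN-WT hearts, while its −5.30, −5.63 and −5.41 in the NEXN-S437E hearts were all at background. The other tested *Esr1* probes were dim in the NEXN-WT hearts, so a fall of that size could not have been seen with them. A_52_P237077, at background on all NEXN-S437E arrays, was at least 1.55-fold lower, and A_65_P17231 had a log2FC of −0.58, both with overlap. The groups therefore differed in this signal as well as in the form of nexilin, and these cannot be told apart in any comparison given here.

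The probes are 60 bases long, and the annotation places them on mm9. Exons and UTRs were not assigned, because no mm9 genome was used here. Of the 28 probes, 16 were designed on RefSeq mRNAs and cover all 10 genes, and 12 on other transcripts of 7 of the genes. The following sequences are shown because the results turn on what these probes read. The first 30 bases, 5′ to 3′, are given of the probes whose 2 groups did not overlap.

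*Anxa8* A_51_P207591, chr14:34913661-34913720, plus strand: atcctctgatcgtggtctccgagcctgaag
*Anxa4* A_55_P2092859, chr6:86686883-86686942, minus strand: ccactgtgcctttttaatcttattcagaaa
*Anxa2* A_55_P2110713, chr9:69339532-69339591, plus strand: gtctgtgacatgagacacttcctcttatgt
*Anxa5* A_51_P426754, chr3:36348065-36348124, minus strand: ccttctgatgttctgtctacagtaggtagt

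Further probes are shown whole because they have a reading frame without a stop over their full length and allow a second look at the same genes. The *Anxa1* probe spans 1514 bases of the genome and the *Anxa2* probe 775 bases, more than their length, so they join separate stretches of genome.

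*Anxa1* A_51_P283590, chr19:20448248-20449761, minus strand: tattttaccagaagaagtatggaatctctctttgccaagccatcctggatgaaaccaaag
*Anxa2* A_51_P165342, chr9:69330846-69331620, plus strand: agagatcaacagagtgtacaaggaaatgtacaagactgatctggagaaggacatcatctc
*Anxa4* A_66_P131538, chr6:86691859-86691918, minus strand: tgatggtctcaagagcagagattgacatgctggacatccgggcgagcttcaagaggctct

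A pair of probes of different genes is shown because it was the best match among all open reading frames of the annexin probes. It is thus a selected pair, the next best had 6 identical residues of 16, and the frames were not checked against the proteins. Aligned without gaps in frame 2 of each, the *Anxa3* probe A_55_P2056325 and the *Anxa11* probe A_55_P2084820 encode the same residue at 9 of 18 positions, and the capitals mark the codons of these residues.

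*Anxa3* A_55_P2056325, chr5:97253925-97253984, plus strand: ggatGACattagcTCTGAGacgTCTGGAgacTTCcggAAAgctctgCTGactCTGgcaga
*Anxa11* A_55_P2084820, chr14:26694168-26694227, plus strand: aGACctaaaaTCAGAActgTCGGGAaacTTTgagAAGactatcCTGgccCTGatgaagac

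Each of the 10 genes had at least 1 probe that was well above background on all 3 arrays of a group, and 17 of the 28 probes met this filter and were tested. Of these, 13 were well above background on all 6 arrays, and 4 passed through the NEXN-WT arrays alone. Among the 16 RefSeq probes 14 were tested, and among the 12 others 3. The counts that follow are over probes that share genes, and they describe the family without testing it as a group. With NEXN-S437E 13 of the 17 probes were lower and 4 higher, and the median of the log2FC was −0.21, where that of all 22998 tested probes was 0.09 (9011 lower, 13987 higher). With the brightest tested probe of each gene the count was 6 lower and 4 higher, with a median of −0.22. Without *Anxa8* the median was −0.19 over 16 probes and −0.09 over 9 genes. The filter can favour a fall for the 4 probes that passed through the NEXN-WT arrays alone. Their log2FCs were −0.21 (*Anxa3* A_55_P2738723), −0.59 (*Anxa6* A_52_P434670), 0.12 (*Anxa9*) and 0.17 (*Anxa11*). Restricting the count to the 13 probes seen on all 6 arrays, *Anxa8* among them, left 11 negative log2FCs and 2 positive ones (median −0.28).

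After Benjamini-Hochberg adjustment over all tested probes in limma, 1 annexin probe passed 0.05 and was lower, and 0.13% of all tested probes did so in that direction. The same probe, of *Anxa8*, was the only 1 of the 17 lower by at least 2-fold with an unadjusted p under 0.05, as were 1.78% of all tested probes. No probe of the 10 member genes (0) was higher by these thresholds, as were 0.735% of all, and 0 were higher at an unadjusted p under 0.05 alone, as were 10.5% of all. At that unadjusted p 3 were lower (*Anxa8*, *Anxa4* and *Anxa5*), against 6.7% of all tested probes. The NEXN-S437E arrays lay wholly below the NEXN-WT arrays for 4 of the 17 (*Anxa8*, *Anxa4*, *Anxa2* and *Anxa5*), against 9.17% of all, and wholly above them for 0, against 18.7% of all. Without *Anxa8*, on which the family was selected, 2 of 16 probes were lower at the unadjusted p, 3 of 16 lay wholly below and 0 passed the adjusted p or the 2-fold threshold. Without NEXN-WT replicate 1 the count of lower probes at the unadjusted p was 2 (5.83% of all), that without overlap was 4 (12.5% of all) and the median of the 17 was −0.10. Without NEXN-WT replicate 2 these were 4 (6.46% of all), 9 (12.9% of all) and −0.27, and without NEXN-WT replicate 3 they were 2 (8.1% of all), 6 (15.0% of all) and −0.31.

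**Figure D1:**
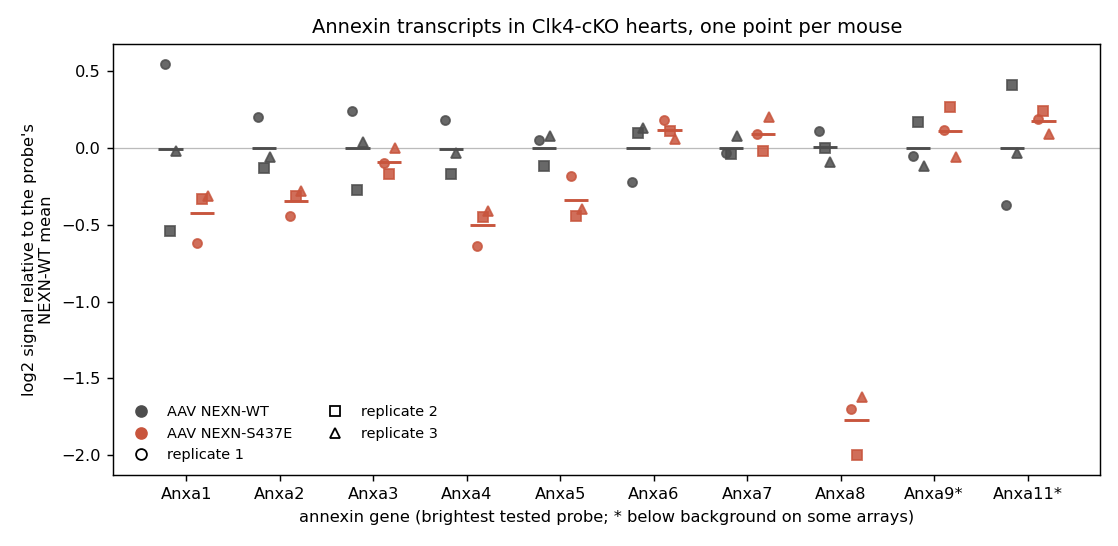
Signal of the brightest tested probe of each annexin gene, 1 point per mouse, on the log2 scale relative to the mean of the NEXN-WT mice for the same probe. Short lines are group means (n = 3), marker shapes are replicate numbers, by which the labels state no pairing, and the genes with an asterisk were well above background on 4 (*Anxa9*) or 5 (*Anxa11*) of 6 arrays. *Anxa8* lies far below the other genes with NEXN-S437E.

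*Anxa8* was lower in every NEXN-S437E heart than in any NEXN-WT heart. It encodes an annexin first described as an anticoagulant that binds phospholipid, and it is best known from epithelia. Its relative log2 signals were 1.19, 1.08 and 0.99 with NEXN-WT and −0.62, −0.92 and −0.54 with NEXN-S437E. The 3 values of a group stayed within 0.38 of each other, and the groups were 1.53 apart at their nearest. The means were 1.08 ± 0.10 and −0.69 ± 0.20 (SD, n = 3 each), a log2FC of −1.78 ± 0.16 (SE), or 0.291 times the NEXN-WT signal. The adjusted p was 0.0077 in the limma fit of all tested probes. It was 0.0593 in limma without NEXN-WT replicate 2 and 0.0928 with the slide row as a block, and over 18 alternatives it ran from 0.000533 to 0.1975 while the log2FC ran from −1.86 to −1.40. The lowest adjusted p, 0.000533, came from limma with array weights, where 3820 of all tested probes passed the adjusted p, against 37 in the main fit. Within slide row 1, which held all 3 arrays of NEXN-WT and 1 of NEXN-S437E (replicate 1), the difference was −1.70. Row 2 held NEXN-S437E arrays alone, so the log2FC with the row as a block is this same contrast and no separate check. In whole myocardium, fewer cells of a type and less RNA per cell cannot be told apart.

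The promoters of *Anxa8* and *Anxa2* are shown, the first for the size of its difference and the second because it held the most kinds of the motifs AP-1, TATA box and GC box among the annexins. RefSeq start sites on GRCm38.p6 were available for 8 of the 10 genes (all but *Anxa3* and *Anxa6*), 11 in all, and the 250 bases before each start were searched on both strands. The motifs searched were AP-1 (TGANTCA), the TATA box (TATAAA), the CCAAT box (CCAAT), the GC box (GGGCGG), a glucocorticoid receptor motif (AGAACA) and the E-box (CANNTG). Capitals mark matches to the AP-1 motif, the TATA box and the GC box.

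*Anxa8*, chr14:34085729-34085978, plus strand: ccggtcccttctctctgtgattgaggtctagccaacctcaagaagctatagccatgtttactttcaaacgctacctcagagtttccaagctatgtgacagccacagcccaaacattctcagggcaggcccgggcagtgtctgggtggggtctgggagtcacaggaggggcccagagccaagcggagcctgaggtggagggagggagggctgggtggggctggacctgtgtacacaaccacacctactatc
*Anxa2*, chr9:69453433-69453682, plus strand: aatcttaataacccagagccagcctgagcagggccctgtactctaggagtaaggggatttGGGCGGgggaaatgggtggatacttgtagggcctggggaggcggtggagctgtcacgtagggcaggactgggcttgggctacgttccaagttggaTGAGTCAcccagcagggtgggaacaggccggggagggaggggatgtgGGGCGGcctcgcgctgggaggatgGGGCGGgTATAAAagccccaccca

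The *Anxa8* window held none (0) of the 6 motifs. The *Anxa2* window held 3 GC boxes, 1 AP-1 motif and 1 TATA box, which begins 17 bases before the start. Among all 32851 promoter windows of this length, 6.75% held the AP-1 motif, 12.4% the TATA box, 33.8% the CCAAT box, 32.7% the GC box, 16.1% the glucocorticoid receptor motif and 66.2% the E-box. Among the 11 annexin windows the AP-1 motif was in 1 (*Anxa2*), the TATA box in 2 (*Anxa1* and *Anxa2*), the glucocorticoid receptor motif in 1 (*Anxa4*), the CCAAT box in 0, the GC box in 4 and the E-box in 6. These are matches of letters, and no binding was measured.

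*Anxa2*, *Anxa4* and *Anxa5* had lower signals in every NEXN-S437E heart than in any NEXN-WT heart, by less than 2-fold and without passing the adjusted p. *Anxa2* encodes the annexin that pairs with S100A10 and gathers plasminogen and its activator at the cell surface. Its probe A_55_P2110713 had relative log2 signals of 6.65, 6.32 and 6.39 with NEXN-WT and of 6.01, 6.14 and 6.17 with NEXN-S437E. The groups did not overlap, but the gap between them was 0.15, smaller than the spread of the NEXN-WT hearts. Its log2FC was −0.35 ± 0.15 (SE, adjusted p = 0.2923 in limma). The second *Anxa2* probe, A_51_P165342, had −0.28 ± 0.17 (SE, adjusted p = 0.4212 in limma) with overlap, and the 2 probes had a Pearson correlation of 0.80 over the 6 arrays.

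*Anxa4* encodes an annexin known from epithelia and from calcium-dependent membrane aggregation. Its probe A_55_P2092859 had relative log2 signals of 3.31, 2.96 and 3.10 with NEXN-WT and of 2.49, 2.68 and 2.72 with NEXN-S437E, without overlap. The log2FC was −0.50 ± 0.16 (SE, adjusted p = 0.1996 in limma). The other tested *Anxa4* probe, A_66_P131538, gave a smaller value of −0.16 ± 0.15 (SE, adjusted p = 0.5644 in limma) and its groups overlapped. The difference was thus larger for one probe of this gene than for the other, and their correlation over the arrays was 0.67.

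*Anxa5* encodes the annexin whose affinity for phosphatidylserine is used to stain dying cells. The relative log2 signals of its only probe were 6.34, 6.17 and 6.37 with NEXN-WT and 6.11, 5.85 and 5.89 with NEXN-S437E. The highest NEXN-S437E heart lay 0.06 below the lowest NEXN-WT heart. Its log2FC was −0.34 ± 0.15 (SE, adjusted p = 0.288 in limma) and was −0.18 within slide row 1. In the deposited normalized values, which the authors had scaled, *Anxa2*, *Anxa4* and *Anxa5* had larger differences of −0.58, −0.59 and −0.57 for the same probes. Bright genes outside the family were also lower in those values than in the main ones, such as *Mfge8* (−0.34 against −0.03), *Csf1r* (−0.12 against 0.07) and *Myh6* (0.2 against 0.58). The larger differences are therefore not particular to the annexins.

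*Anxa1* encodes a glucocorticoid-induced protein that ends inflammation through formyl peptide receptors, and it varied among the NEXN-WT hearts more than between the groups. Its probe A_55_P2092826 had relative log2 signals of 4.76, 3.67 and 4.19 with NEXN-WT and of 3.59, 3.88 and 3.90 with NEXN-S437E. The NEXN-S437E hearts lay close together, with an SD of 0.17 against 0.54, and NEXN-WT replicate 2 was below 2 of them. The log2FC was −0.42 ± 0.27 (SE, adjusted p = 0.429 in limma), and leaving out NEXN-WT replicate 1 gave −0.14, leaving out replicate 2 of that group −0.69. A_51_P283590 gave the same picture with 4.55, 3.54 and 4.16 against 3.50, 3.72 and 3.72, a log2FC of −0.44 and a correlation of 0.99 with the first probe.

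The first *Anxa1* probe is printed 10 times on each array, which gives the error of single spots within an array. The SD of its spots within an array was 0.040 to 0.163, with 9 or 10 spots used. The means of the 3 NEXN-WT arrays were 1.09 apart at most. Each mouse had 1 array, so differences among mice and differences in labelling, hybridisation and scaling among arrays cannot be told apart in these values.

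**Figure D2:**
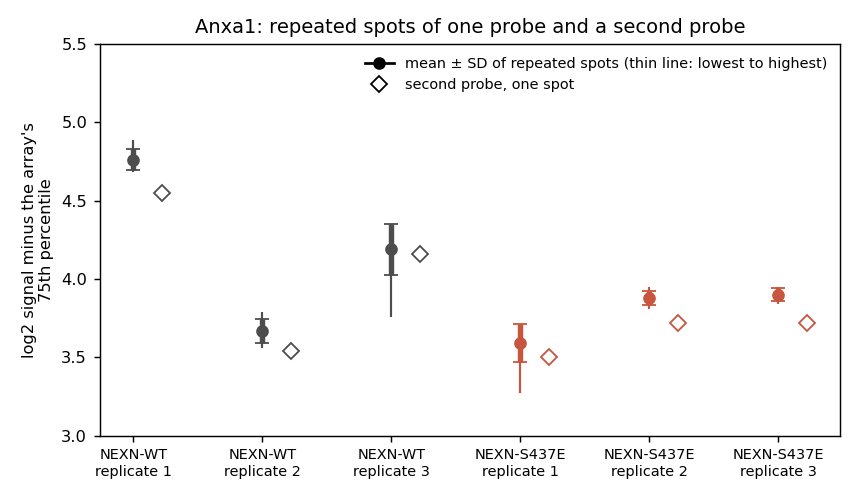
Relative log2 signal of *Anxa1* on each array. Filled points with thick bars are the mean ± SD of the repeated spots of A_55_P2092826 (9 or 10 spots, thin lines from lowest to highest), and open diamonds are the single spot of A_51_P283590. The bars within an array are short beside the differences among the NEXN-WT arrays.

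*Anxa3*, known from neutrophils and vessels, showed values of the 2 groups that interleaved. Its brightest probe, A_51_P451032, had 4.91, 4.40 and 4.71 with NEXN-WT and 4.57, 4.50 and 4.67 with NEXN-S437E as relative log2 signals. The log2FC was −0.09 ± 0.17 (SE, adjusted p = 0.7913 in limma), and the other tested *Anxa3* probes gave −0.13 (A_55_P2056325) and −0.21 (A_55_P2738723), all 3 with overlap. The last of these was not well above background on NEXN-S437E replicate 3. For 2 of these 3 probes, A_51_P451032 and A_55_P2738723, the sign turned without NEXN-WT replicate 1, to 0.03 and 0.01.

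*Anxa6* has a doubled annexin core and is abundant in heart muscle. Its probe A_55_P2076792 had relative log2 signals of 4.78, 5.10 and 5.13 with NEXN-WT and of 5.18, 5.11 and 5.06 with NEXN-S437E. NEXN-WT replicate 1 was the lowest heart and the other 5 lay within 0.12 of each other. The log2FC of 0.12 ± 0.15 (SE, adjusted p = 0.7015 in limma) turned to −0.02 under quantile normalization and −0.05 in the deposited normalized values. A second probe, A_52_P434670, designed on a transcript outside RefSeq and not well above background on NEXN-S437E replicate 1, gave −0.59 ± 0.27 (SE, adjusted p = 0.3096 in limma) with overlap. It was 0.06 after normexp background correction and −1.20 with the slide row as a block. That block sets NEXN-S437E replicate 1 alone against the NEXN-WT arrays. The signals of the 2 *Anxa6* probes ran opposite ways over the arrays (r = −0.69).

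*Anxa7*, which binds the calcium-binding protein sorcin, had relative log2 signals of 1.87, 1.86 and 1.98 with NEXN-WT and of 1.99, 1.88 and 2.10 with NEXN-S437E. Its log2FC was 0.09 ± 0.14 (SE, adjusted p = 0.7515 in limma) for A_55_P1962039 and −0.12 ± 0.22 (SE) for A_55_P2729478, a probe outside RefSeq. *Anxa9*, whose core lacks usual calcium sites, and *Anxa11*, an RNA granule adaptor, were near the limit of detection. *Anxa9* had −3.03, −2.81 and −3.10 against −2.86, −2.71 and −3.04, a log2FC of 0.12 ± 0.16 (SE). *Anxa11* had −3.58, −2.80 and −3.24 against −3.02, −2.97 and −3.12, a log2FC of 0.17 ± 0.21 (SE), which was −0.01 without NEXN-WT replicate 1. The groups of *Anxa7*, *Anxa9* and *Anxa11* overlapped for each of these probes.

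**Figure D3:**
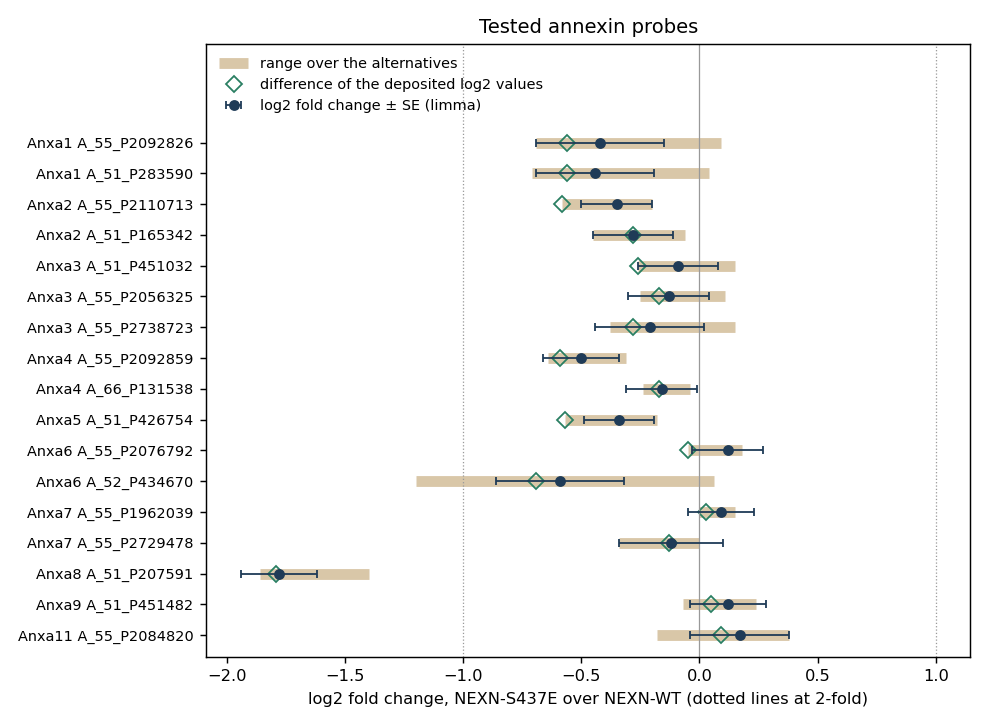
Log2 fold change of NEXN-S437E over NEXN-WT for the 17 tested annexin probes (points, with the standard error from limma, n = 3 mice each), the difference in the deposited normalized log2 values (open diamonds) and the range over the processing alternatives (bands). Dotted lines mark 2-fold. The band of *Anxa8*, from −1.86 to −1.40, stays beyond 2-fold lower, and bands of *Anxa1*, *Anxa3*, *Anxa6*, *Anxa9* and *Anxa11* include both signs, while those of *Anxa7* reach 0 to 2 decimals.

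The remaining 11 of the 28 probes were too dim to test. On 7 of them no array was well above background, and the other 4 were so on 1 or 2 arrays. These were the *Anxa4* probe A_52_P456440, seen on NEXN-S437E replicate 2 alone (−2.75, against −6.24 to −5.25 elsewhere), the *Anxa7* probe A_52_P534355, seen on NEXN-S437E replicate 1 alone (−2.95, against −5.85 to −5.38), the *Anxa1* probe A_55_P2896937, on NEXN-WT replicate 1, and the *Anxa11* probe A_55_P2733277, on 1 array of each group. Of the 11, 9 were designed on transcripts outside RefSeq and 2 on *Anxa9*. No direction is read from them.

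The order of the arrays within a group was counted over the annexin probes, some of which share a gene. Of the 13 annexin probes seen on all 6 arrays, NEXN-WT replicate 1 was the highest of its group for 9 and NEXN-WT replicate 2 the lowest for 10. NEXN-S437E replicate 3 was the highest of its group for 8. Over the 8 brightest probes of a gene among them, these counts were 5, 6 and 6. Among the 18906 probes with a gene symbol that were seen on all arrays, NEXN-WT replicate 1 was the highest for 5737 and the lowest for 9719, NEXN-WT replicate 2 was the lowest for 4060, and NEXN-S437E replicate 3 was the highest for 4619. After each group mean was removed, the signals of *Anxa1*, *Anxa2* and *Anxa4* ran together over the 6 arrays, with Pearson correlations of 0.95 for *Anxa1* with *Anxa2*, 0.95 for *Anxa1* with *Anxa4* and 0.97 for *Anxa2* with *Anxa4*. *Anxa3* ran with *Anxa1*, *Anxa2* and *Anxa4* too (r = 0.91, 0.80 and 0.81). *Anxa6* ran against *Anxa1*, *Anxa2* and *Anxa4* (r = −0.84, −0.95 and −0.85), and *Anxa5* had correlations of 0.20 with *Anxa1*, −0.04 with *Anxa2*, 0.49 with *Anxa3* and −0.08 with *Anxa4*. The correlations of *Anxa8* with *Anxa1* to *Anxa7* were −0.42 to 0.56, and *Anxa9* and *Anxa11*, not seen on all arrays, were not included. The points are 6 arrays that share their scaling and include NEXN-WT replicate 1, so these values describe these hearts only.

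The scaling bears on the small differences. Over every tested probe the median of the log2FC was 0.09 with the 75th percentile over all probes, 0.01 with the percentile over detected probes, 0.03 after quantile normalization, 0.09 after normexp correction and 0.02 in the deposited values. The median over the brightest probe of each of the 10 annexins was −0.22, −0.30, −0.40, −0.30 and −0.41 in the same order. These medians include *Anxa8*, on which the family was selected. Without *Anxa8* the median of the other 9 was −0.09, −0.17, −0.25, −0.24 and −0.26, which was 0.18 to 0.33 below that of all tested probes. Leaving out NEXN-WT replicate 1, with the 75th percentile over all probes, gave −0.08 for the 10 genes and −0.01 for the 9, against 0.05 for all tested probes.

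The genes whose signal was most like that of a member over the 6 arrays were found among the same 18906 probes, by Pearson correlation and with the group difference included. For *Anxa8* they were *Fchsd1* (r = 0.996, log2FC −0.43), the lymphotoxin gene *Ltb* (0.993, −2.27) and the basement membrane collagen gene *Col4a1* (0.991, −0.76). For *Anxa2* they were *Gm32191* (0.997), *Zfp354c* (0.996) and *Ahnak2* (0.996), for *Anxa4* *Faap24*, *Obsl1* and *Supt20* (0.991 to 0.997), and for *Anxa5* *Limd2* (0.999), *Rpl3* (0.996) and *Myo1e* (0.994). *Anxa1* was most like *Mt3*, *Knstrn* and *Asah1* (0.988 to 0.989), *Anxa3* most like *Syap1*, *Casp4* and *Xrcc4* (0.979 to 0.987), *Anxa6* most like *1700056E22Rik*, *4931440F15Rik* and *Tuba1c* (0.999 each), and *Anxa7* most like *Mrgprf*, *2610305D13Rik* and *Sdpr* (0.966 to 0.976). With so many probes and 6 arrays, correlations of this height are a ranking and no more.

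The proteins that annexins work with were read from 6 lists of 48 genes, of which 44 had a tested probe. By the 2-fold and unadjusted p thresholds 0 of the 44 were lower and 1 higher, against 1.78% and 0.735% of all tested probes, and by the adjusted p none (0) passed in limma. Their median log2FC was −0.04. The gene past the thresholds was *Timd4*, a macrophage receptor for phosphatidylserine, the lipid to which *Anxa5* binds. It had relative log2 signals of −2.63, −1.41 and −0.67 with NEXN-WT and of −0.52, −0.47 and −0.55 with NEXN-S437E, a log2FC of 1.06 ± 0.42 (SE, adjusted p = 0.2623 in limma). Its NEXN-WT hearts were spread widely, while the NEXN-S437E hearts lay close together. *Timd4* no longer passed when NEXN-WT replicate 1 or 2 or any NEXN-S437E replicate was left out, and the count was then 0 to 2.

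For the S100 partners, *S100a10*, the partner of *Anxa2*, had a log2FC of −0.03 ± 0.16 (SE, adjusted p = 0.9295 in limma), while *Anxa2* had −0.35. *S100a11*, a partner of *Anxa1*, had 4.17, 4.06 and 4.22 against 3.89, 3.90 and 3.88 as relative log2 signals, a difference of −0.26 (adjusted p = 0.3465 in limma) without overlap. *S100a6* had 0.06, the sorcin gene *Sri* −0.16 without overlap, and *Pdcd6*, which encodes a partner of *Anxa11*, 0.11. In this list 0 of 7 genes passed the 2-fold threshold, 5 were lower and 2 higher.

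In the plasminogen system 0 of 5 tested genes passed. *Plat*, the tissue activator that binds the *Anxa2* complex, had −0.53 ± 0.23 (SE, adjusted p = 0.2973 in limma), *Plau* had 0.36 and the receptor gene *Plaur* 0.26. *Plg*, made in the liver, was at background on all arrays. Of the 3 formyl peptide receptors, through which *Anxa1* acts, *Fpr2* was tested and had −0.17 ± 0.17 (SE), while *Fpr1* and *Fpr3* were not well above background on any array.

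Among the 9 membrane repair genes, 0 passed with all 6 arrays. *Dysf*, the dysferlin gene, had 0.03 ± 0.17 (SE), and *Trim72*, which encodes the repair protein MG53, had −1.09, 0.69 and −0.12 with NEXN-WT and 0.47, 0.47 and 0.32 with NEXN-S437E as relative log2 signals, a log2FC of 0.59 ± 0.39 (SE, adjusted p = 0.4424 in limma). It passed the 2-fold and unadjusted p thresholds without NEXN-WT replicate 2. Of the 15 genes of phosphatidylserine exposure and recognition, 11 had a negative log2FC and 4 a positive one (median −0.05). In the list on phospholipase A2, eicosanoids and the glucocorticoid response, to which *Anxa1* belongs by function, 0 of 7 tested genes passed with all 6 arrays. *Pla2g4a*, the cytosolic phospholipase A2, had −0.73 ± 0.23 (SE, adjusted p = 0.1996 in limma) and *Alox5*, the 5-lipoxygenase, 0.99 ± 0.31 (SE, adjusted p = 0.1953 in limma), both without overlap. *Alox5* passed the 2-fold and unadjusted p thresholds in 4 of the 6 fits with 1 array left out, those without NEXN-WT replicate 2 or 3 or NEXN-S437E replicate 2 or 3. The glucocorticoid target *Tsc22d3* had −0.28 and *Fkbp5* −0.44, with overlap.

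Marker genes of several cell types moved with the groups, beside the annexin values. The markers of a list are summed here as linear signals relative to the 75th percentile, over its tested genes. All 7 fibroblast markers had a negative log2FC and 3 passed the 2-fold and unadjusted p thresholds (*Col1a1* −1.82, *Col1a2* −1.49 and *Col3a1* −1.34), and their sum was 621 to 948 with NEXN-WT and 449 to 483 with NEXN-S437E. Of 6 activated fibroblast markers 5 passed, among them *Cilp* (−3.81), *Comp* (−4.11) and *Postn* (−2.98). *Cthrc1*, also among those that passed, met the detection filter through the NEXN-WT arrays alone. Their sum was 37.7 to 200 with NEXN-WT, the highest in replicate 1 and 39.7 at most in the others, and 8.44 to 9.05 with NEXN-S437E.

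Of the 5 tested T and NK cell markers 4 passed, among them *Cd3d* (−2.49) and *Ccl5* (−2.73) and *Cd3g*, at least 2.18-fold lower. Their sum was 5.42 to 10.3 against 1.43 to 1.88. Of the 2 tested B and plasma cell markers *Jchain* was at least 4.13-fold lower, and *Cd79b* had a log2FC of −0.61 and did not pass. *Cd79a* and *Ms4a1* were not well above background on any array. *Cd3g* and *Jchain* were well above background on the NEXN-WT arrays alone, so they were tested only through the group where they were high. The bounds set the NEXN-WT mean against the higher of the gene's own signal and the lowest detected signal on each NEXN-S437E array. All 7 cardiomyocyte markers had positive log2FCs (median 0.43) and 0 passed, with sums of 1520 to 1970 and 2340 to 2450.

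The lists of macrophages (185 to 244 against 214 to 231), neutrophils (up to 36.7 against 34.1 to 42.6), endothelial cells (75.6 to 106 against 87.4 to 119) and smooth muscle cells and pericytes (127 to 172 against 114 to 172) overlapped between the groups, and 0 of their 21 tested genes passed. The neutrophil sum was mostly the signal of 1 gene, *Csf3r*, while *S100a8* and *S100a9* were highest in NEXN-S437E replicate 1 (relative log2 signals of −0.47 and 1.85, against −3.44 to −2.10 and −0.84 to 0.72 in the other 5 hearts). Of 6 mesothelial and epithelial markers, listed because *Anxa8* and *Anxa4* are known from epithelia, 2 were tested. *Upk1b* and *Epcam* were not well above background on any array, and the sum of *Msln* and *Wt1* was 1.90 to 2.07 with NEXN-WT and 1.93 to 3.36 with NEXN-S437E. The part of any of these cell types in the annexin values was not tested.

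**Figure D4:**
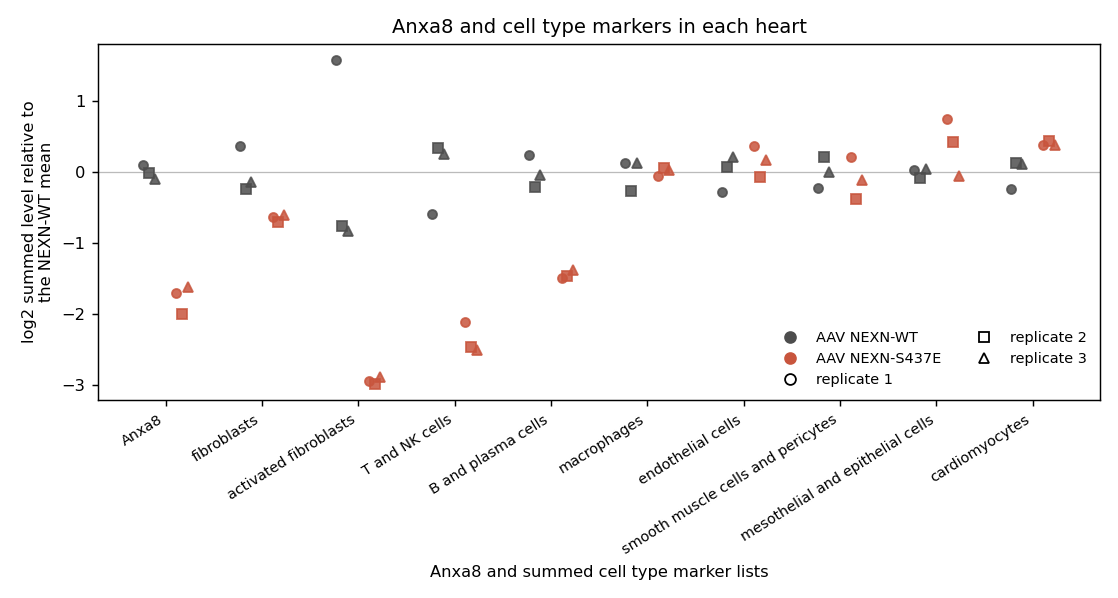
*Anxa8* and the summed markers of 9 cell type lists in each heart, as log2 of the linear signal minus the mean of that log2 in the NEXN-WT hearts, 1 point per mouse. With NEXN-S437E the points of *Anxa8* and of the fibroblast, activated fibroblast, T and NK cell and B and plasma cell lists lie below those of all NEXN-WT hearts, those of cardiomyocytes above, and those of the other 4 lists overlap with them. The B and plasma cell sum holds 2 genes, *Jchain* and *Cd79b*. *Jchain*, *Cd3g* and *Cthrc1* entered their sums through the NEXN-WT arrays alone.

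The other 2 annexin genes on the array were set beside the members. Neither of the *Anxa10* probes, for an annexin of the stomach, was well above background on any of the 6 arrays. *Anxa13*, which is typical of the intestine, had a higher signal with NEXN-S437E for A_51_P296737, with −1.49, −0.96 and −0.48 against −0.17, 0.10 and −0.24 as relative log2 signals and no overlap. Its log2FC was 0.88 ± 0.25 (SE, adjusted p = 0.1823 in limma). The second *Anxa13* probe, A_52_P662711, had 0.60 ± 0.35 (SE, adjusted p = 0.3941 in limma), with overlap.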

How the data were processed

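Total RNA of the myocardium of 3 NEXN-WT and 3 NEXN-S437E mice was hybridised, 1 mouse per array, to Agilent SurePrint G3 Mouse Gene Expression v2 arrays in 1 colour. The deposited array files hold intensity values that Agilent Feature Extraction 10.7.1.1 had corrected for background and detrended, per the file headers. The deposited series table also holds log2 values that the authors had normalized between arrays by a method not given in the sources used here, and these served as an alternative. Its 6 columns of flags were not used.

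The main values were log2 of the processed intensity minus the 75th percentile of each array, without control or outlier spots and with repeated spots averaged. The test was run on probes that the scanner software marked as well above background on every array of at least 1 group (22998 probes of 13747 genes). The groups were compared in limma 3.58.1 (R 4.3.3, lmFit and eBayes, no block) with Benjamini-Hochberg adjustment over all tested probes. A probe was called at an adjusted p under 0.05, or at a 2-fold change with an unadjusted p under 0.05. The steps were tested on simulated data. The number of arrays limits the precision, and no spot (0) was saturated.

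A gene of several probes was represented by its brightest tested probe. All member probes, *Anxa10*, *Anxa13*, *Clk4*, *Nexn*, *Esr1*, 6 partner genes (*S100a10*, *S100a11*, *S100a6*, *Plat*, *Dysf*, *Trim72*), called partners (up to 4 a list), up to 3 called markers a list and the 3 genes most correlated with each member were named by rule. The other partner and marker genes were named after their values were seen. The members and lists were chosen with earlier results of these data known. Alternatives were normexp correction (offset 50), quantile normalization, a percentile over detected probes, the deposited normalized values, other filters, outlier spots kept, the methods' t-test, an intensity trend, array weights, blocks for replicate number and slide row, and each array left out. The slide row was the position on the 1 slide that held all arrays. Counts without each array over the same tested probes, and medians without *Anxa8*, were added after seeing the data. Among the lists not described with the results, *Fabp4*, the 1 tested adipocyte marker, had a summed level of 175 to 219 with NEXN-WT and 257 to 288 with NEXN-S437E, and the erythrocyte sum was 38.9 to 110 and 28.5 to 318. Promoters were read from RefSeq tables with Python 3.11.15 and plots drawn with matplotlib 3.10.9.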

Additional observations from a re-analysis of the deposited data

How the results depend on the processing

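The direction of *Anxa8* was the same under every alternative run, while its adjusted p was above 0.05 in 4 of 18: 0.0970 without a filter on dim probes, 0.1975 with the methods' t-test, 0.0928 with the slide row as a block and 0.0593 without NEXN-WT replicate 2. The count of annexin probes past the adjusted p was accordingly 0 under these and ranged from 0 to 1 with 1 array left out. At 2-fold and an unadjusted p the count was 2 without a filter, which added a dim *Anxa3* probe (A_55_P2727689). With the slide row block *Anxa6* A_52_P434670 had −1.20. That block sets NEXN-S437E replicate 1 alone against NEXN-WT, and on this array the probe was not well above background. The partner count was 0 with normexp correction, the percentile over detected probes, no filter, the methods' t-test, the slide row block and array weights, and 0 to 2 with 1 array left out. The array weights were 4.22 for NEXN-WT replicate 2, against 0.2 and 0.59 for replicates 1 and 3 of that group, so that fit leaned on 1 NEXN-WT array. With array weights the log2FC turned to 0.09 (A_55_P2092826) and 0.04 (A_51_P283590) for *Anxa1*, 0.15 (A_51_P451032) and 0.11 (A_55_P2056325) for *Anxa3*, −0.18 for *Anxa11* and −0.07 for *Anxa9*. With normexp correction it turned to 0.15 for *Anxa3* A_55_P2738723 and 0.06 for *Anxa6* A_52_P434670, and was 0 to 2 decimals, of opposite sign, for *Anxa6* A_55_P2076792 and both *Anxa7* probes. *Anxa6* A_55_P2076792 was −0.02 with quantile normalization and −0.05 in the deposited values. With 1 array left out the log2FC ranged from −0.01 to 0.38 for *Anxa11*, from −0.23 to 0.03 for *Anxa3* A_51_P451032 and from −0.38 to 0.01 for *Anxa3* A_55_P2738723. The cause of these changes was not tested. Of 302 alternative values of single probes, 282 kept direction and side of the threshold.

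The labels state no pairing of mice by replicate number, so none was used. Deviations from the group means of same-numbered arrays correlated at −0.154, −0.028 and −0.176, and those of differently numbered arrays at −0.07 to 0.183. With 3 arrays a group these values cannot show whether mice were paired. With the replicate block *Anxa8* had a log2FC of −1.78 (adjusted p = 0.0472 in limma), and the counts stayed at 1 for the annexins at both thresholds and 1 for the partners. Probes near background (*Anxa9*, *Anxa11*, the second *Anxa6* probe and *Anxa3* A_55_P2738723) limit what the arrays show of these genes.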
